A study of Homo sapiens with 22 samples.

Results

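DOX day 12 is a group of human haematopoietic progenitor cells in which doxycycline had switched on an ectopic copy of MYC, sampled on day 12 of culture. It was compared here, over every gene, with UT day 10, the untreated cells at the earliest time sampled. The 4 libraries of this comparison, 2 per group, were picked by their labelled treatment and day out of 22 in the study. The question is what still changes from the start while ectopic MYC is on. The cells were made from the H1 line of human embryonic stem cells, and no second line was used. RNA was polyA-selected before sequencing. UT day 10 had no doxycycline. A further group of 2 libraries, UT day 12, was also untreated and shows the change over the same 2 days without doxycycline. The day on which doxycycline was added is not given in the sources used here.

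Doxycycline and 2 days of culture separate DOX day 12 from UT day 10 together, and their shares in a change cannot be told apart from these 4 libraries alone. UT day 12 against UT day 10 is therefore set beside it, and shares its UT day 10 libraries. DOX day 12 against UT day 12, which shares the DOX day 12 libraries, is the test of whether the changes from day 10 differed with and without doxycycline. No library had doxycycline without ectopic MYC, so effects of the drug itself cannot be told apart from those of MYC. Whether the 2 replicates of a group were grown separately is not in the labels, so a p-value here reflects the spread of these libraries and no more, and that spread may be technical.

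MYC is a transcription factor that binds DNA with its partner MAX and is known for raising genes of ribosome production, nucleotide synthesis, protein synthesis and cell division. In blood-forming cells its level usually falls as progenitors mature. Granulocytes, mast cells and megakaryocytes fill their granules with lineage-specific proteins as they mature, and the transcripts of these proteins serve as markers of the lineage.

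The 6 libraries of these 3 groups held 33346915 to 53508590 counts. Genes of the mitochondrial genome made up 8.92% ± 0.585 of counts in UT day 10, 10.6% ± 0.441 in UT day 12 and 11.3% ± 1.28 in DOX day 12 (SD, n = 2). Progenitor markers were present in all 6 libraries: CD34, the classic surface marker of blood progenitors, lay between 80 and 111 CPM (counts scaled by library size and TMM to a common total), and the summed level of 34 stem and progenitor genes lay between 3047 and 3184 CPM. Of 17 pluripotency genes, 10 passed the filter on low counts, and POU5F1, NANOG and SOX2 did not. LIN28A, the most abundant of the 10, stood at 148 and 180 CPM in UT day 10 and 96.5 and 114 in DOX day 12. None of the 10 pluripotency, 22 fibroblast or 9 epithelial genes tested was called in DOX day 12 against UT day 10 (edgeR quasi-likelihood test), and 1 of 9 neural genes was. With only the 4 libraries compared, 2 of 21 fibroblast genes were called higher and 8 lower. In that fit 0 of 8 pluripotency genes were higher and 2 lower, and 1 of 7 epithelial genes was higher and 0 lower.

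MYC itself (ENSG00000136997.21, at 127735434 to 127741434 of chromosome 8, plus strand, GRCh38) stood at 157 and 142 CPM in UT day 10 and at 242 and 232 CPM in DOX day 12. Both DOX day 12 libraries were above both UT day 10 libraries, as they were for 26.9% of all genes tested (5420), and for a further 26.8% (5395) both were below, so a lack of overlap between these groups of 2 is common. The log2 fold change of 0.67 (SE 0.24) was not called (adjusted p = 0.29, edgeR quasi-likelihood test with Benjamini-Hochberg adjustment over all genes). MYC was called under 3 of 16 alternatives, with no filter on low counts (adjusted p = 0.0016), with only the 3 groups of days 10 and 12 (adjusted p = 0.00031) and with only the 4 libraries compared (adjusted p = 8.8e-05). UT day 12 was lower than UT day 10, at 126 and 121 CPM, and there MYC in DOX day 12 was called higher by 0.94 on the log2 scale (SE 0.24, adjusted p = 0.041). This call was lost without any 1 of the 4 libraries involved (log2 0.91 to 0.98). The counts hold 1 row for MYC, and it is not stated whether that row also took reads of the ectopic copy. The related gene MYCN, a MYC family member of early progenitors, went the other way. It stood at 37.8 and 36.5 CPM in UT day 10, 29.5 and 30.1 in UT day 12 and 15.1 and 17.9 in DOX day 12. Its fall from UT day 10 was called (log2 -1.17, SE 0.26, adjusted p = 0.023), and its difference from UT day 12 was not (log2 -0.85, adjusted p = 0.084). MXI1, which competes with MYC for MAX, rose from 21.8 and 22.2 CPM to 36.3 and 39.9 (log2 0.79, SE 0.17, adjusted p = 0.023), and stood at 32.5 and 33.5 CPM in UT day 12. The calls of MYCN and MXI1 were lost without any 1 of the 4 libraries (log2 -1.29 to -1.04 and 0.73 to 0.86), and that of MXI1 also with library sizes alone (0.71, adjusted p = 0.079).

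Over all genes, 293 of 20115 were called in DOX day 12 against UT day 10 (1.46%), 250 higher (1.24%) and 43 lower (0.214%). Without doxycycline, 1635 genes were called over the same days (8.13%), 1174 higher (5.84%) and 461 lower (2.29%). DOX day 12 against UT day 12 gave 625 calls (3.11%), 170 higher (0.845%) and 455 lower (2.26%). This last split moved with the settings: 63 were higher and 409 lower with library sizes alone, 122 and 520 with DESeq2 size factors, 642 and 888 by limma-voom, and 2152 and 2337 with only the 3 groups of days 10 and 12. Of all genes tested, 80.1% were within 1.5-fold of their UT day 10 level in DOX day 12, and 72.2% in UT day 12. Genes called higher differed by a median of 2.59-fold, with 61 at 4-fold or more, and genes called lower by 1.7-fold, with 6 at 4-fold or more. Of the 293, 274 are protein-coding.

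The number of calls depended on which libraries set the spread. The fit shares its spread over 11 groups, and replicates of these 3 groups lay closer together (chi-square per gene 7.99 to 13.9) than those of days 14 to 20 (21.2 to 101). With only the 4 libraries compared, 2673 of 17792 genes were called (15%), 1454 higher (8.17%) and 1219 lower (6.85%), and all 290 of the 293 that were tested there were called in the same direction. Data of this comparison were also simulated with the spread of the 11-group fit, changing only genes of at least 1 CPM in UT day 10. Of genes changed 2-fold 61.2% were recovered, and of those changed 1.5-fold 14.9%, so many changes of that size would not be called. Recovery of genes under 1 CPM, or with the smaller spread of these 3 groups, was not simulated. Leaving out 1 of the 4 libraries lowered the count to 122 (UT day 10 replicate 1), 81 (UT day 10 replicate 2), 120 (DOX day 12 replicate 1) or 153 (DOX day 12 replicate 2). Below, a call is said to hold if it stayed when each of the 4 libraries compared was left out in turn; for a lost call, the log2 fold change without the library is given.

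**Figure D1:**
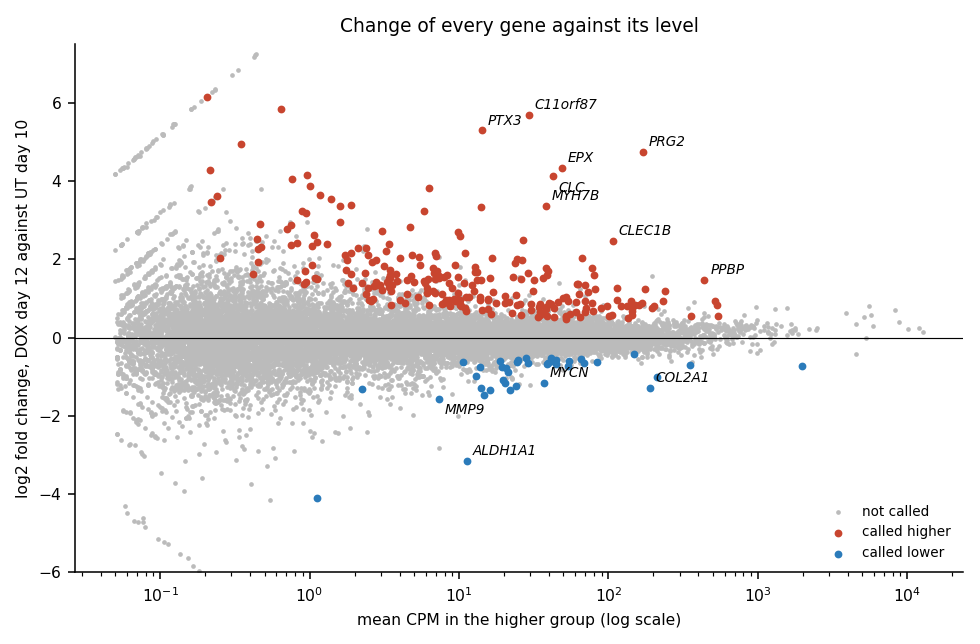
Each point is 1 gene, placed by the mean CPM of the group in which it was higher (log axis) and by its log2 fold change in DOX day 12 against UT day 10 (2 libraries each); red marks the 250 genes called higher and blue the 43 called lower at an adjusted p under 0.05. Labelled points include C11orf87, PTX3 and the eosinophil granule genes PRG2, EPX and CLC high above 0, and 840 genes, 5 of them called and UTP14C among these, fall outside the axes (below 0.05 CPM or beyond the fold range).

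The counts for each list below stand beside these shares of all genes. In DOX day 12 against UT day 10, 1.24% were called higher and 0.214% lower, or 8.17% and 6.85% with only the 4 libraries compared. In UT day 12 against UT day 10 the shares were 5.84% and 2.29%, and in DOX day 12 against UT day 12 0.845% and 2.26%. Few growth genes were called in DOX day 12 against UT day 10. Of 33 growth genes known as MYC targets, 0 were called higher and 0 lower, and their median log2 fold change was 0.06 (-0.01 when scaled by library size alone). Of 42 ribosome biogenesis genes, 1 was called higher and 0 lower, with a median of 0.10. Cytosolic ribosomal protein genes gave 0 calls among 40 and a median of 0.20, with all 40 above 0 under each of 3 scalings (TMM, DESeq2 size factors and library sizes alone). With only the 4 libraries compared, 6 of the 33, 2 of the 42 and 13 of the 40 were called higher and 0, 1 and 0 lower, against 8.17% of all genes higher. In the untreated cells the medians of these 3 lists were -0.35, -0.34 and -0.16, with 4, 3 and 0 members called lower and 0 called higher. Against UT day 12 they were 0.42, 0.46 and 0.38, with 6, 7 and 4 members called higher and 0 lower. All 33, 42 and 40 members were above 0 there, under each of the 3 scalings. NPM1, a nucleolar protein of ribosome assembly, stood at 1096 and 1236 CPM in UT day 10, 938 and 957 in UT day 12, and 1447 and 1416 in DOX day 12. Its DOX day 12 libraries were the highest and its UT day 12 libraries the lowest of the 6. It was not called against UT day 10 (log2 0.30, adjusted p = 0.66) and was called against UT day 12 (log2 0.60, adjusted p = 0.045, edgeR), a call lost without any 1 of the 4 libraries (0.58 to 0.62). The ribosomal protein gene RPL4 stood at 1490 and 1592 CPM in UT day 10 and 1750 and 1775 in DOX day 12, and was not called (log2 0.19, adjusted p = 0.89).

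NOB1, an endonuclease that completes the small ribosomal subunit, was the ribosome biogenesis gene called higher. It stood at 38.0 and 37.7 CPM in UT day 10, fell to 28.3 and 28.9 in UT day 12, and reached 53.8 and 50.5 in DOX day 12, so that the 3 groups did not overlap. Its rise from UT day 10 was 0.46 on the log2 scale (SE 0.11, adjusted p = 0.043) and its untreated change was -0.40 (adjusted p = 0.030). The difference between these changes, 0.87 (SE 0.11, adjusted p = 0.00044), held, while the first 2 calls were lost without any 1 library (0.42 to 0.52 and -0.42 to -0.39). The rise was also not called with library sizes alone (0.39, adjusted p = 0.39).

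**Figure D2:**
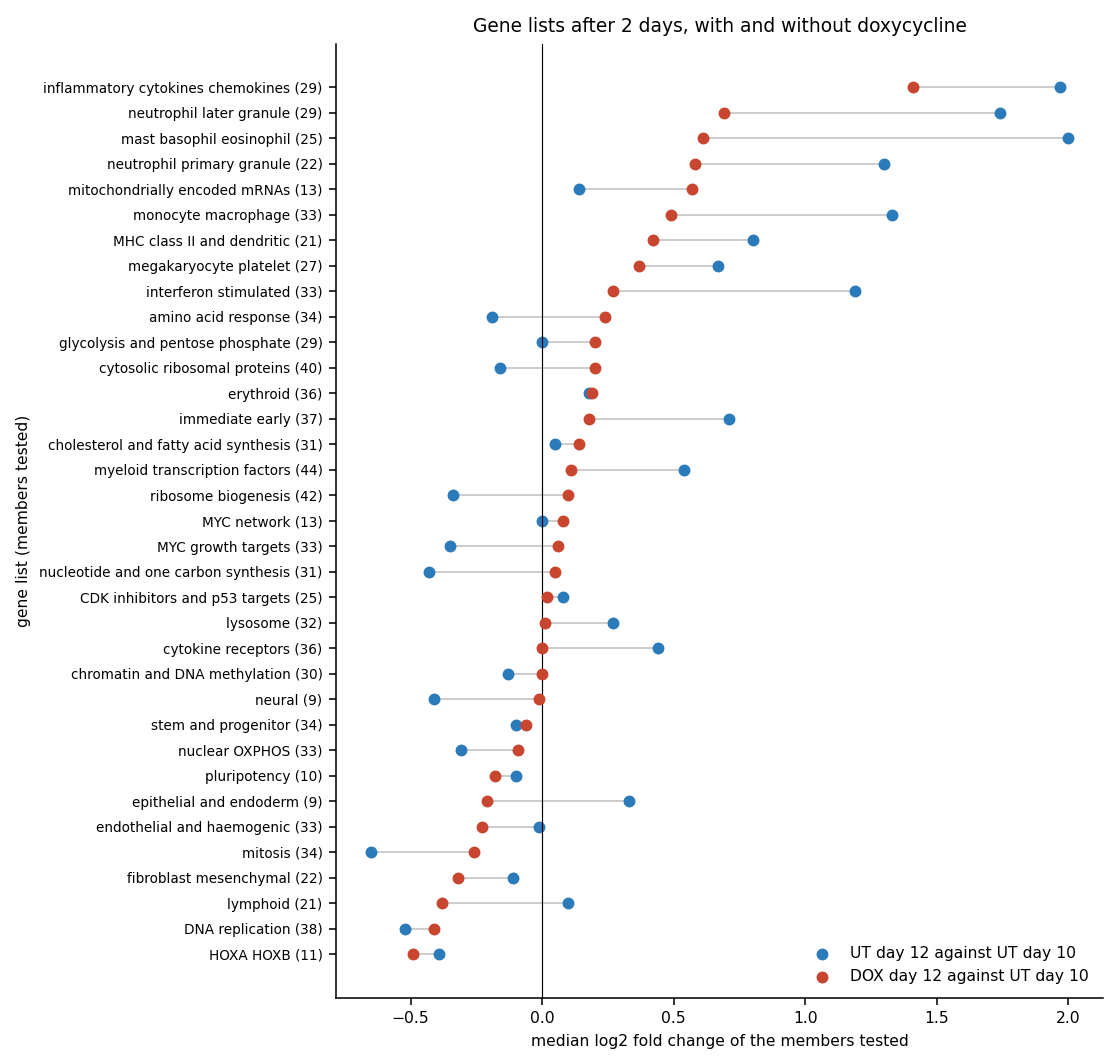
Median log2 fold change of 35 hand-written gene lists (rows, with the number of members tested) in DOX day 12 against UT day 10 (red) and in UT day 12 against UT day 10 (blue); both share the UT day 10 libraries. The growth lists sit below 0 in blue and between 0.06 and 0.20 in red, the granulocyte, mast cell and monocyte lists sit above 0 in both with the larger value in blue, and DNA replication sits below 0 in both.

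Genes of DNA replication were below their UT day 10 level in both day 12 groups. In DOX day 12, 5 of 38 were called lower and 0 higher, with a median of -0.41 and all 38 below 0 under each of the 3 scalings. In UT day 12, 17 were called lower and 0 higher (median -0.52), and DOX day 12 against UT day 12 gave 0 calls (median 0.10). The 5 called genes were UHRF1, which guides DNA methylation at the fork, the flap nuclease FEN1, the clamp loader subunit RFC2, and the helicase factors CDC45 and MCM3. FEN1 stood at 60.4 and 70.2 CPM in UT day 10, at 46.5 and 42.2 in UT day 12 and at 48.9 and 40.4 in DOX day 12. Both day 12 groups lay below UT day 10 and overlapped each other. Its fall was -0.55 on the log2 scale (SE 0.13, adjusted p = 0.040, edgeR), and that of UHRF1, from 55.8 and 53.9 CPM to 39.1 and 33.3, was -0.60 (SE 0.14, adjusted p = 0.031). RFC2 fell by 0.53, CDC45 by 0.52 and MCM3, which was chosen after its values were seen to complete the count, by 0.41 on the log2 scale. All 5 calls were lost without any 1 of the 4 libraries (-0.69 to -0.41 for FEN1, -0.71 to -0.48 for UHRF1, -0.59 to -0.46 for RFC2, -0.61 to -0.43 for CDC45 and -0.47 to -0.35 for MCM3). With library sizes alone MCM3 (-0.49, adjusted p = 0.1), FEN1 (-0.62, adjusted p = 0.084) and UHRF1 (-0.67, adjusted p = 0.074) were not called, RFC2 was not called with no filter (adjusted p = 0.064), and CDC45 was not called with DESeq2 size factors (adjusted p = 0.053). With only the 4 libraries compared, 31 of the 38 were called lower, against 6.85% of all genes.

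Of 34 mitosis genes, 0 were called in DOX day 12 against UT day 10 and the median was -0.26. In UT day 12, 27 were called lower and 0 higher (median -0.65). DOX day 12 was above UT day 12 for all 34 under each of the 3 scalings, with 7 called higher and 0 lower (median 0.43). MKI67, the proliferation marker, stood at 419 and 426 CPM in UT day 10, 221 and 268 in UT day 12 and 306 and 366 in DOX day 12. The change from UT day 10 of -0.33 on the log2 scale was not called (adjusted p = 0.64). With only the 4 libraries compared, 19 of the 34 were called lower, against 6.85% of all genes. CCND1, the cyclin that starts the cell cycle in response to growth signals, fell from 12.7 and 16.8 CPM to 4.76 and 5.96, and stood at 6.96 and 7.75 in UT day 12. Its fall of -1.46 on the log2 scale (SE 0.23, adjusted p = 0.0017) was not called without UT day 10 replicate 2 (-1.24) or DOX day 12 replicate 1 (-1.31).

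Glycolysis genes were called higher in 4 of 29 and lower in 0 (median 0.20). The 4 were the aldolase ALDOC, the glycolytic regulator PFKFB4, glucose-6-phosphate isomerase GPI and hexokinase HK2. ALDOC stood at 61.2 and 56.5 CPM in UT day 10, 90.4 and 99.9 in UT day 12 and 107 and 121 in DOX day 12 (log2 0.96 from UT day 10, SE 0.20, adjusted p = 0.015, edgeR). PFKFB4 rose from 24.6 CPM in both UT day 10 libraries to 51.5 and 40.4 (log2 0.90, SE 0.21, adjusted p = 0.033), against 31.7 and 31.5 in UT day 12. Both genes were highest in DOX day 12 and lowest in UT day 10, without overlap. GPI rose by 0.54 and HK2 by 0.56. The difference from UT day 12 was not called for any of the 4 (log2 0.26 to 0.54). The calls of ALDOC, GPI and HK2 against UT day 10 were lost without any 1 library (0.87 to 1.05, 0.50 to 0.60 and 0.46 to 0.66), and that of PFKFB4 without either UT day 10 library (0.91 and 0.91) or DOX day 12 replicate 1 (0.72). With library sizes alone PFKFB4 (0.83, adjusted p = 0.061), GPI (0.46, adjusted p = 0.12) and HK2 (0.48, adjusted p = 0.25) were not called. GAPDH, the most abundant of the list, was not called (log2 0.24, adjusted p = 0.81). With only the 4 libraries compared, 12 of the 29 were called higher and 0 lower.

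The E-box CACGTG is the site that MYC and MAX bind. The bases before the gene start are shown for ALDOC, which rose, and FEN1, which fell, because both hold it. They are from RefSeq on GRCh38.p14, 5′ to 3′ on the gene's strand, and capitals mark CACGTG, which reads the same on both strands. Counted from the gene start, it begins at base -240 in ALDOC (chr17:28576896-28577145, minus strand) and at base -30 in FEN1 (chr11:61792661-61792910, plus strand). Of 27305 promoters of 250 bases in the same table, 6.49% hold it. A match describes the letters and is not a measured binding site.
ALDOC: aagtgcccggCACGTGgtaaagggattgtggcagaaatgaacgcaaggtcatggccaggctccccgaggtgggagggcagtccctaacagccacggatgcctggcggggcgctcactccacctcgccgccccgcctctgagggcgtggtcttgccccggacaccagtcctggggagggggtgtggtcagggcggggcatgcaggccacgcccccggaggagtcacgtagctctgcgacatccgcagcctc
FEN1: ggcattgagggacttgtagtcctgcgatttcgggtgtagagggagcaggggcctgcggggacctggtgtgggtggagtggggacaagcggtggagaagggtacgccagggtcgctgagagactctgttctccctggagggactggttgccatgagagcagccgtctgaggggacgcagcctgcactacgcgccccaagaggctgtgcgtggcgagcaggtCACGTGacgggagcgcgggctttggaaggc

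Of 25 mast cell, basophil and eosinophil genes tested, 10 were called higher in DOX day 12 and 0 lower (median log2 fold change 0.61, against 0.000 over all genes), and 17 of the 25 were above 0. In UT day 12, 17 were called higher and 0 lower (median 2.00), and against UT day 12 the DOX day 12 group gave 15 lower and 0 higher (median -1.29). The 4 libraries fitted alone tested 22 and called 15 higher and 1 lower against UT day 10. The summed level of the 25 genes was 294 and 308 CPM in UT day 10, 1394 and 1135 in UT day 12 and 614 and 545 in DOX day 12. In bulk RNA, fewer cells of a type and less RNA per cell cannot be told apart.

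PRG2, the major basic protein of eosinophil granules (ENSG00000186652.10, chromosome 11, 57386794 to 57390657 on the minus strand), stood at 6.91 and 5.67 CPM in UT day 10, 635 and 509 in UT day 12 and 184 and 154 in DOX day 12. The 3 groups did not overlap, and DOX day 12 lay between the others. Its rise from UT day 10 was 4.75 on the log2 scale (SE 0.23, adjusted p = 8.9e-10, edgeR), or 26.8-fold, against 90.7-fold in UT day 12. The difference between the 2 rises was -1.76 (SE 0.20, adjusted p = 0.00014). EPX, the eosinophil peroxidase, went from 2.13 and 2.76 CPM to 58.2 and 39.6 (log2 4.33, SE 0.27), with 172 and 124 in UT day 12. CLC, the Charcot-Leyden crystal protein of eosinophils and basophils, went from 2.31 and 2.59 CPM to 48.9 and 36.2 (log2 4.12, SE 0.22), with 142 and 102 in UT day 12. PRG3, a homologue of PRG2 that neighbours it on chromosome 11, went from 1.43 and 1.33 CPM to 16.9 and 11.1 (log2 3.33, SE 0.23), with 42.9 and 34.9 in UT day 12. All 3 had the same order of groups as PRG2, without overlap. IL5RA, the receptor subunit for the eosinophil cytokine interleukin 5, rose from 0.119 and 0.116 CPM to 1.5 and 1.3 (log2 3.53, SE 0.35), and IL1RL1, the interleukin 33 receptor of mast cells and basophils, from 0.627 and 0.598 to 6.97 and 4.64 (log2 3.23, SE 0.28). The rises of these 6 genes held. Their differences from UT day 12 were called, at -1.60 for EPX, -1.52 for CLC, -1.48 for PRG3, -1.56 for IL5RA and -1.20 for IL1RL1, and held except for IL1RL1, lost without UT day 12 replicate 1 or DOX day 12 replicate 2 (-1.52 to -0.93 over the 4 fits).

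The bases before the starts of CLC and PRG3 are shown because both genes rose together and hold GATAA, the core of the site read by GATA factors, which direct eosinophil and mast cell genes. Sequences are from RefSeq on GRCh38.p14, 5′ to 3′ on the gene's strand, and capitals mark GATAA on either strand (TTATC where it lies on the other strand). Counted from the gene start, the match begins at base -206 in CLC (chr19:39738030-39738279, minus strand) and at base -103 in PRG3 (chr11:57381151-57381400, minus strand). Of all 27305 promoters, 21% hold at least 1 match.
CLC: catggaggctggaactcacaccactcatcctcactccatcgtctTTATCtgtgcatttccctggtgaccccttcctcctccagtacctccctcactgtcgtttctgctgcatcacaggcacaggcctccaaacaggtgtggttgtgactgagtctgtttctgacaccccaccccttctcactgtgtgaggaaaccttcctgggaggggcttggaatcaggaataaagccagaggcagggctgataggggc
PRG3: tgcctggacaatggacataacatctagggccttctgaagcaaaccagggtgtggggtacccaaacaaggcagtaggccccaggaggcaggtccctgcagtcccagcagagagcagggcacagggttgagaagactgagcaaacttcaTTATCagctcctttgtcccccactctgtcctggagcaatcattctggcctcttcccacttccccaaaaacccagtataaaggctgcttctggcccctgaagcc

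Of 22 primary granule genes of neutrophils, 7 were called higher and 0 lower (median 0.58), against 17 and 0 in UT day 12 (median 1.30). Against UT day 12, 11 were lower and 0 higher (median -0.78). The 4 libraries fitted alone tested 20 and called 13 higher and 0 lower against UT day 10. The antibacterial protein AZU1 stood at 4.55 and 3.44 CPM in UT day 10, 25.9 and 20.0 in UT day 12 and 14.6 and 11.1 in DOX day 12 (log2 1.68 from UT day 10, SE 0.19, adjusted p = 5.7e-05, edgeR). CST7, an inhibitor of cysteine proteases in granules, went from 1.73 and 1.29 CPM to 9.99 and 9.65 (log2 2.68, SE 0.20), with 23.0 and 18.1 in UT day 12. BPI, which kills Gram-negative bacteria, went from 1.19 and 0.888 CPM to 3.81 and 3.14 (log2 1.72, SE 0.27), with 8.34 and 6.36 in UT day 12. In all 3 genes DOX day 12 lay between the untreated groups. The serpin SERPINB10 rose from 0.134 and 0.0386 CPM to 0.688 and 1.08 (log2 3.24, SE 0.41), a value that ran from 2.71 without UT day 10 replicate 2 to 4.43 without UT day 10 replicate 1. These 4 rises held, though that of BPI was not called by limma-voom (adjusted p = 0.055). Their differences from UT day 12 were called (log2 -0.83 for AZU1, -1.06 for CST7, -1.08 for BPI and -1.69 for SERPINB10). Those of AZU1, CST7 and BPI were lost without UT day 12 replicate 1 or DOX day 12 replicate 2, and that of BPI also without DOX day 12 replicate 1 (-1.04 to -0.63, -1.22 to -0.88 and -1.26 to -0.87 over the 4 fits). That of SERPINB10 was lost without DOX day 12 replicate 1 (-2.05 to -1.40).

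Later granule and mature neutrophil genes were called higher in 4 of 29 and lower in 1 (median 0.69), against 19 and 0 in UT day 12 (median 1.74). The fit of only the 4 libraries, with its own filter, tested 20 and called 8 higher and 1 lower (median 0.40). S100A8, a calcium-binding alarmin, went from 2.64 and 2.39 CPM to 6.58 and 5.66 (log2 1.28, SE 0.24, adjusted p = 0.0075, edgeR), with 23.6 and 17.4 in UT day 12. The lectin FCN1 went from 3.15 and 2.24 CPM to 9.54 and 6.98 (log2 1.60, SE 0.24, adjusted p = 0.00092), with 27.2 and 20.5 in UT day 12. Both lay between the untreated groups. The call of FCN1 held, and that of S100A8 was lost without UT day 10 replicate 1 (1.36), UT day 10 replicate 2 (1.22) or DOX day 12 replicate 1 (1.17), and by limma-voom (1.26, adjusted p = 0.072). The member called lower was MMP9, a gelatinase stored in granules. It stood at 7.81 and 6.83 CPM in UT day 10, 7.32 and 5.53 in UT day 12 and 2.51 and 2.43 in DOX day 12, below both untreated groups. Its log2 fold change was -1.57 from UT day 10 (SE 0.36, adjusted p = 0.033) and -1.38 from UT day 12 (adjusted p = 0.045). Both calls were lost without any 1 of their 4 libraries (-1.65 to -1.46 and -1.56 to -1.16).

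Monocyte and macrophage genes were called higher in 3 of 33 and lower in 1 (median 0.49), against 18 and 0 in UT day 12 (median 1.33). In the fit of only the 4 libraries, 30 were tested, 8 called higher and 5 lower (median 0.16). Their summed level was 539 and 507 CPM in UT day 10, 838 and 794 in UT day 12 and 506 and 502 in DOX day 12, so the last did not exceed the first. Against UT day 12, 12 were called lower and 0 higher (median -1.10). Besides FCN1, the called genes were MS4A7 (log2 3.87) and osteopontin, SPP1 (log2 1.91), which were higher, and the lipid carrier APOE, which was lower (log2 -1.35). MS4A7 rested on 7 and 1 counts in UT day 10 and on 57 and 91 in DOX day 12, and its log2 fold change ran from 3.25 without UT day 10 replicate 2 to 5.52 without UT day 10 replicate 1. SPP1 and APOE lost their calls without any 1 of the 4 libraries (1.78 to 2.09 and -1.46 to -1.22), and SPP1 also with library sizes alone (1.84, adjusted p = 0.072). MHC class II and dendritic cell genes were called higher in 2 of 21 and lower in 0 (median 0.42), against 8 and 0 in UT day 12 (median 0.80). The 4 libraries fitted alone tested 18 and called 6 higher and 3 lower against UT day 10 (median 0.26). HLA-DRA, the constant chain of the antigen-presenting molecule HLA-DR, stood at 3.90 and 3.36 CPM in UT day 10, 32.3 and 29.7 in UT day 12 and 13.3 and 12.3 in DOX day 12. The groups did not overlap. Its rise of 1.81 (SE 0.19, adjusted p = 2.1e-05, edgeR) and its difference of -1.28 from UT day 12 (SE 0.18, adjusted p = 0.00082) both held. CD74, the invariant chain that escorts class II molecules, was not called against UT day 10 (log2 0.58, adjusted p = 0.13, edgeR), with 36.2 and 29.1 CPM there and 49.2 and 48.7 in DOX day 12, while UT day 12 stood at 100 and 88.0. Under 5 of 16 alternatives CD74 was called against UT day 10 (log2 0.44 to 0.75 over the 16).

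Of 27 megakaryocyte and platelet genes, 4 were called higher and 0 lower (median 0.37), against 13 and 0 in UT day 12 (median 0.67). By the 4 libraries alone, 16 were called higher and 2 lower. Their summed level was 12183 and 11973 CPM in UT day 10, 16273 and 17795 in UT day 12 and 11925 and 13083 in DOX day 12, so the first and the last overlapped. THBS1, which was lower in DOX day 12 (values below), is the largest member of this sum. Of the 27 genes, 23 were above 0 in DOX day 12 against UT day 10 (20 with library sizes alone). CLEC1B, the platelet receptor CLEC-2, stood at 19.6 and 19.1 CPM in UT day 10, 231 and 202 in UT day 12 and 113 and 101 in DOX day 12 (log2 2.46 from UT day 10, SE 0.17, adjusted p = 7.8e-08, edgeR). The platelet chemokine PPBP stood at 161 and 154, 1058 and 1070, and 447 and 431 CPM in the same order of groups (log2 1.48, SE 0.20, adjusted p = 0.00039). F13A1, the clotting factor XIII chain, went from 17.8 and 15.2 CPM to 74.4 and 59.1 (log2 2.02, SE 0.17), with 199 and 169 in UT day 12. These 3 rises held. The differences from UT day 12 were -1.02 for CLEC1B, -1.28 for PPBP and -1.46 for F13A1. That of F13A1 held, that of CLEC1B was lost without UT day 12 replicate 1 or DOX day 12 replicate 2 (-1.11 to -0.92 over the 4 fits), and that of PPBP without DOX day 12 replicate 2 (-1.30 to -1.24). RGS18, a regulator of G protein signals in platelets, was called at 0.69 and lost its call without any 1 library (0.63 to 0.76) and with library sizes alone (0.61, adjusted p = 0.11). THBS1, the most abundant of the list, was not called (log2 -0.42, adjusted p = 0.79), and its DOX day 12 libraries, at 3121 and 3679 CPM, lay below those of UT day 10, at 4639 and 4484.

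**Figure D3:**
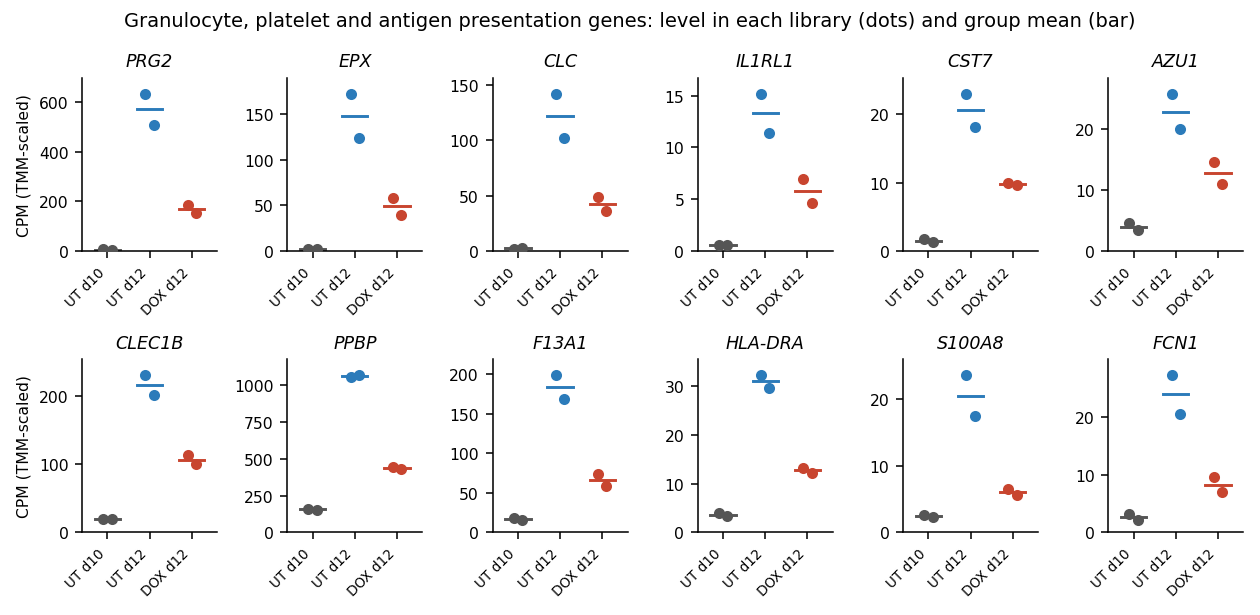
Level in CPM (TMM-scaled, linear axis from 0) of 12 granulocyte, platelet, monocyte and antigen presentation genes in each library (dots) and the mean of the 2 libraries of a group (bar), for UT day 10, UT day 12 and DOX day 12. In every panel the DOX day 12 libraries lie above those of UT day 10 and below those of UT day 12, for example 184 and 154 CPM of PRG2 against 6.91 and 5.67, and 635 and 509.

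Of 36 erythroid genes, 3 were called higher and 0 lower, against 1.24% of all genes higher, with a median of 0.19. In UT day 12, 4 were called higher and 4 lower (median 0.18). Against UT day 12, the DOX day 12 group gave 5 higher and 2 lower (median 0.15). The 4 libraries fitted alone gave 14 higher and 4 lower. CD36, a fatty acid transporter of erythroid precursors, megakaryocytes and monocytes, rose from 5.63 and 4.0 CPM to 14.2 and 12.3 (log2 1.46, SE 0.20, adjusted p = 0.00033, edgeR), with 31.0 and 24.4 in UT day 12. TRIM58, a ubiquitin ligase of maturing red cells, rose from 122 and 119 CPM to 222 and 238 (log2 0.93, SE 0.18), with 289 and 288 in UT day 12. SLC25A37, which carries iron into mitochondria for haem, stood at 315 and 288 CPM in UT day 10, 312 and 375 in UT day 12 and 477 and 587 in DOX day 12 (log2 0.82, SE 0.17). CD36 and TRIM58 lay between the untreated groups, whereas SLC25A37 was highest in DOX day 12. The call of CD36 held. The call of TRIM58 was lost without any 1 library (0.89 to 0.99), and that of SLC25A37 without UT day 10 replicate 1 (0.89), UT day 10 replicate 2 (0.77) or DOX day 12 replicate 2 (0.67).

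Some genes rose as far with doxycycline as without it. MYH7B, a slow myosin heavy chain (ENSG00000078814.17, at 34975403 to 35002437 of chromosome 20, plus strand), stood at 4.21 and 3.22 CPM in UT day 10, 33.2 and 36.2 in UT day 12 and 38.9 and 37.8 in DOX day 12. Both day 12 groups were far above day 10. Its rise was 3.36 (SE 0.18, adjusted p = 1.6e-09, edgeR), and the difference from UT day 12 was 0.14 (SE 0.16). The calcium-dependent kinase gene PNCK went from 7.82 and 5.67 CPM to 26.4 and 26.7 (log2 1.98, SE 0.20), with 24.0 and 22.8 in UT day 12. The apelin receptor gene APLNR, of endothelium and early mesoderm, went from 1.69 and 1.70 CPM to 9.02 and 11.4 (log2 2.59, SE 0.26), with 8.43 and 10.6 in UT day 12. TESPA1, a thymocyte signalling protein, went from 4.90 and 5.27 CPM to 14.2 and 13.9 (log2 1.46, SE 0.16), with 16.0 and 15.3 in UT day 12. GCOM1, a gene that overlaps its neighbours so that reads may be shared, rose by 1.5 and the sarcomere gene MYOM1 by 1.48. These genes were named because their day 12 groups differed by less than 0.25 on the log2 scale, so their likeness is a description. The rises held except for MYOM1, lost without UT day 10 replicate 2 (1.35) or DOX day 12 replicate 1 (1.41).

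Immediate early genes, the first to answer growth and stress signals, were called higher in 7 of 37 and lower in 1 (median 0.18), against 19 and 0 in UT day 12 (median 0.71). With only the 4 libraries compared, 14 of the 37 were called higher and 6 lower. FOS, a subunit of the factor AP-1, stood at 6.19 and 3.22 CPM in UT day 10, 41.1 and 30.9 in UT day 12 and 29.3 and 24.4 in DOX day 12 (log2 2.50 from UT day 10, SE 0.26, adjusted p = 1.4e-05, edgeR). FOSB, another AP-1 subunit, went from 0.597 and 0.270 CPM to 6.21 and 6.47 (log2 3.83, SE 0.52), with 5.62 and 4.62 in UT day 12. Both rises held, and neither gene was called between the day 12 groups. EGR2, a zinc finger factor, rose by 2.38 (SE 0.38; 2.13 and not called without UT day 10 replicate 2). The member called lower in the fit of all groups, DUSP6, is a phosphatase that switches off ERK signalling. It stood at 25.2 and 24.8 CPM in UT day 10, rose to 41.9 and 36.9 in UT day 12 and was at 18.0 and 15.9 in DOX day 12. DOX day 12 was thus the lowest and UT day 12 the highest group. Its log2 fold change was -0.56 with doxycycline (SE 0.13, adjusted p = 0.033) and 0.66 without (adjusted p = 0.0028). The difference, -1.22 (SE 0.13, adjusted p = 0.00012), held. The fall from UT day 10 was lost without any 1 library (-0.65 to -0.47) and with library sizes alone (-0.64, adjusted p = 0.069), and the untreated rise without UT day 10 replicate 2 or UT day 12 replicate 1 (0.57 to 0.75 over the 4 fits).

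Of 29 cytokine and chemokine genes tested, 8 were called higher and 0 lower (median 1.41), against 22 and 0 in UT day 12 (median 1.97). When only the 4 libraries were fitted, with their own filter, 22 were tested, 16 called higher and 1 lower (median 0.97). CCL22, a chemokine of macrophages and dendritic cells, rose from 0.716 and 0.618 CPM to 4.59 and 4.88 (log2 2.81, SE 0.33, adjusted p = 7.4e-05, edgeR), with 3.55 and 2.69 in UT day 12, and its call held. NFKBIA, the inhibitor that NF-kappaB induces against itself, stood at 36.3 and 35.9 CPM in UT day 10, 84.0 and 81.4 in UT day 12 and 52.5 and 51.6 in DOX day 12. The DOX day 12 libraries lay between the others. Its rise of 0.53 (SE 0.12, adjusted p = 0.031) was lost without any 1 library (0.52 to 0.55) and with library sizes alone (0.45, adjusted p = 0.28). Among cytokine receptors, 4 of 36 were called higher and 1 lower (median 0.00). The 4 libraries fitted alone tested 35 and called 9 higher and 5 lower. The interleukin 7 receptor IL7R went from 2.88 and 2.53 CPM to 7.11 and 8.82 (log2 1.56, SE 0.26), with 19.7 and 16.3 in UT day 12, and was not called without UT day 10 replicate 2 (1.48). Interferon-stimulated genes gave 1 call of 33 and a median of 0.27, against 16 higher and 1 lower and a median of 1.19 in UT day 12. The 4 libraries fitted alone tested 30 and called 9 higher and 2 lower. In the fit of all groups the gene called was IFI6 (log2 0.96, SE 0.24, adjusted p = 0.048, edgeR), which went from 6.89 and 7.26 CPM to 16.4 and 11.3, with 29 and 25.1 in UT day 12. It was not called without UT day 10 replicate 1 (0.93), UT day 10 replicate 2 (1.01) or DOX day 12 replicate 1 (0.68), nor with library sizes alone (0.89, adjusted p = 0.13).

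Genes that fell from UT day 10 fell about as far in both day 12 groups in several cases. COL2A1, a fibrillar collagen (ENSG00000139219.19, chromosome 12, 47972965 to 48004554 on the minus strand), stood at 189 and 188 CPM in UT day 10, 63.1 and 72.7 in UT day 12 and 74.9 and 78.9 in DOX day 12. FGD5, a regulator of the cytoskeleton in endothelium and stem cells, went from 21.7 and 22.1 CPM to 8.18 and 9.0, with 8.26 and 9.38 in UT day 12. NAV1, a microtubule-binding protein, went from 19.6 and 21.2 CPM to 8.54 and 9.79, with 8.0 and 8.86 in UT day 12. In all 3 the day 12 groups lay below UT day 10 without overlap. The log2 fold changes from UT day 10 were -1.30 (SE 0.30, adjusted p = 0.033), -1.35 (SE 0.25, adjusted p = 0.0075) and -1.16 (SE 0.24, adjusted p = 0.015, edgeR). DESeq2 did not call COL2A1 (-1.30, adjusted p = 0.23). The growth factor binding protein IGFBP4 fell by 1.23, the histone variant MACROH2A2 by 0.87 and the asparaginase ASRGL1 by 0.76 on the log2 scale. The genes from COL2A1 to ASRGL1 met a rule that their day 12 groups differ by less than 0.25 on the log2 scale. Their likeness is therefore a description. ALDH1A1, the retinaldehyde dehydrogenase used as a progenitor marker, had the largest fall named, from 9.04 and 13.7 CPM to 0.778 and 1.78 (log2 -3.15, SE 0.67, adjusted p = 0.020), with 1.09 and 2.40 in UT day 12. All these falls except that of ASRGL1 were lost without any 1 of the 4 libraries (ranges -1.33 to -1.25, -1.41 to -1.27, -1.25 to -1.06, -1.35 to -1.10, -0.97 to -0.75 and -3.86 to -2.67, in the order named). ASRGL1 was lost without UT day 10 replicate 1 (-0.77), UT day 10 replicate 2 (-0.74) or DOX day 12 replicate 1 (-0.65).

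Endothelial genes moved both ways, with 3 of 33 called higher, 2 lower and a median of -0.23. Besides APLNR, the rises were LYVE1, a hyaluronan receptor of lymphatic and early blood-forming endothelium, and the chemokine receptor CXCR4. LYVE1 stood at 14.9 and 10.9 CPM in UT day 10, 112 and 96.4 in UT day 12 and 40.6 and 37.4 in DOX day 12 (log2 1.59, SE 0.25, adjusted p = 0.0017, edgeR; 1.40 and not called without UT day 10 replicate 2). CXCR4 rose by 1.34 (SE 0.24; 1.14 without UT day 10 replicate 2 and 1.15 without DOX day 12 replicate 1, not called in either). The falls were the adhesion gene CDH5, VE-cadherin, and the receptor TIE1. CDH5 stood at 13.9 and 12.3 CPM in UT day 10, 9.90 and 8.52 in UT day 12 and 6.31 and 6.95 in DOX day 12 (log2 -0.98, SE 0.21, adjusted p = 0.022; lost without any 1 library, -1.06 to -0.89, and with no filter, adjusted p = 0.11). TIE1, chosen after its values were seen to complete the count, stood at 71.9 and 64.9 CPM in UT day 10, 39.1 and 39.7 in UT day 12 and 41.7 and 46.2 in DOX day 12 (log2 -0.64, SE 0.12, adjusted p = 0.0075; lost without any 1 library, -0.70 to -0.56). The summed level of the list was 1363 and 1264 CPM in UT day 10, 1678 and 1709 in UT day 12 and 1254 and 1352 in DOX day 12. With only the 4 libraries compared, 31 of the list were tested, 5 called higher and 10 lower.

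**Figure D4:**
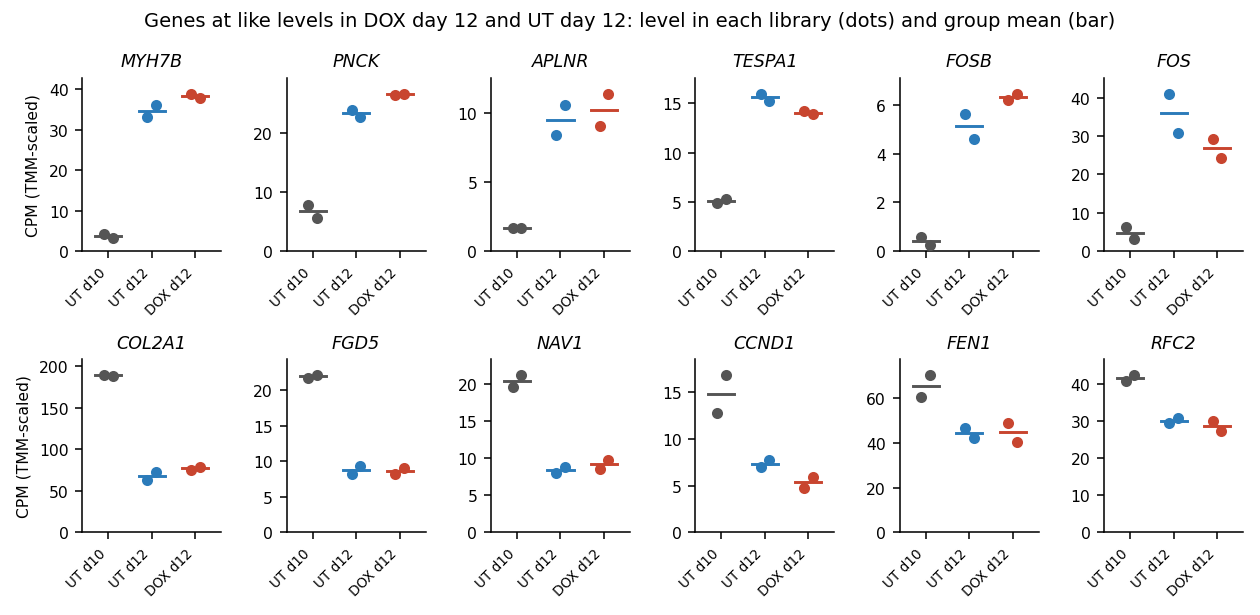
Level in CPM (TMM-scaled, linear axis from 0) of 12 genes in each library (dots) with the mean of the 2 libraries of a group (bar), for UT day 10, UT day 12 and DOX day 12. In the panels from MYH7B to FOS the day 12 groups lie above UT day 10, and in those from COL2A1 to RFC2 below it, with FEN1 at 60.4 and 70.2 CPM on day 10 and 48.9 and 40.4 in DOX day 12.

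A further set of genes was apart from both untreated groups. C11orf87, a gene named for its open reading frame (ENSG00000185742.7, at 109422120 to 109429114 of chromosome 11, plus strand), stood at 0.597 and 0.521 CPM in UT day 10, 1.45 and 2.01 in UT day 12 and 31.5 and 27.1 in DOX day 12. The DOX day 12 libraries were far above the other 4. Its log2 fold change was 5.70 from UT day 10 (SE 0.38, adjusted p = 6.3e-08, edgeR) and 4.07 from UT day 12 (SE 0.34, adjusted p = 1e-05). PTX3, a secreted pattern recognition protein of inflammation, stood at 0.388 and 0.328 CPM, 1.36 and 0.838 CPM, and 15.5 and 12.9 CPM in the same order of groups. Its log2 fold change was 5.29 (SE 0.47, adjusted p = 2.3e-06) from UT day 10 and 3.70 (SE 0.42, adjusted p = 0.00014) from UT day 12. Both differences of both genes held. SIPA1L2, a GTPase-activating protein, went from 3.0 and 2.16 CPM to 9.84 and 8.99, with 2.81 and 2.84 in UT day 12 (log2 1.86, SE 0.30; 1.66 and not called without UT day 10 replicate 2).

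Some genes named from the hand-written amino acid list also lay above both untreated groups. Of 34 amino acid response genes, 3 were called higher and 0 lower (median 0.24), against 1 higher and 5 lower in UT day 12 (median -0.19) and 8 higher and 0 lower in DOX day 12 against UT day 12 (median 0.44). Fitted on the 4 libraries alone, 14 of 33 were called higher and 0 lower against UT day 10. ASNS, asparagine synthetase, stood at 7.6 and 8.09 CPM in UT day 10, 6.00 and 7.07 in UT day 12 and 21.6 and 24.4 in DOX day 12. The untreated groups lay close together and DOX day 12 stood alone above them. Its log2 fold change was 1.55 from UT day 10 (SE 0.24, adjusted p = 0.0016, edgeR) and 1.81 from UT day 12 (SE 0.25, adjusted p = 0.00063), and both held. ASS1, argininosuccinate synthase of arginine synthesis, went from 1.96 and 1.93 CPM to 6.84 and 6.50 (log2 1.78, SE 0.31), with 2.66 and 2.80 in UT day 12. STC2, a secreted glycoprotein induced by stress, went from 3.87 and 4.38 CPM to 11.1 and 10.5 (log2 1.39, SE 0.31), with 3.92 and 4.22 in UT day 12. Neither gene had overlap between DOX day 12 and the other groups. The call of ASS1 was lost without either UT day 10 library (1.79 and 1.78), and that of STC2 without any 1 library (1.30 to 1.49). ATF4, the factor that drives this response, stood at 173 and 180 CPM in UT day 10, 216 and 209 in UT day 12 and 242 and 249 in DOX day 12, and was not called (log2 0.48, adjusted p = 0.053, edgeR). Under 7 of 16 alternatives ATF4 was called (log2 0.40 to 0.51 over the 16).

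Nucleotide and one-carbon genes gave 2 calls of 31, both higher (median 0.05, or -0.02 with library sizes alone), against 9 lower and 0 higher in UT day 12 (median -0.43). With only the 4 libraries compared, 3 of the 31 were called higher and 5 lower. ALDH1L2, the mitochondrial folate dehydrogenase, stood at 2.49 and 1.85 CPM in UT day 10, 1.92 and 2.03 in UT day 12 and 7.21 and 6.95 in DOX day 12 (log2 1.70 from UT day 10, SE 0.28, adjusted p = 0.0024, edgeR). PSAT1, an aminotransferase of serine synthesis, went from 19.5 and 19.3 CPM to 38.3 and 31.6 (log2 0.85, SE 0.18, adjusted p = 0.020), with 17.1 and 16.8 in UT day 12. In both genes DOX day 12 lay above all 4 untreated libraries. The call of ALDH1L2 was lost without UT day 10 replicate 2 (1.51), and that of PSAT1 without either UT day 10 library (0.86 and 0.85), without DOX day 12 replicate 1 (0.71) or with library sizes alone (0.77, adjusted p = 0.090).

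The bases before the start of ASNS are shown because its rise held and they contain TGATGNAA, a motif of the amino acid response element (N is any base). The sequence is from RefSeq on GRCh38.p14 (chr7:97872409-97872658, minus strand), 5′ to 3′ on the gene's strand, with the match in capitals; both strands were searched. The match begins at base -68, counted from the gene start. Of all 27305 promoters, 3.19% hold at least 1 match.
ASNS: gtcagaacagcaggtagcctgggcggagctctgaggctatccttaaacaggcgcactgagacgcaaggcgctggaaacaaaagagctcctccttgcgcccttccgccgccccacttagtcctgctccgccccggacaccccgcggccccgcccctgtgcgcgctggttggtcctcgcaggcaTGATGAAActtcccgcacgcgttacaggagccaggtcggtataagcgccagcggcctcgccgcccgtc

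Both metallothioneins named, small proteins that bind zinc and copper, were above both untreated groups. MT1X stood at 2.30 and 2.61 CPM in UT day 10, 1.41 and 3.16 in UT day 12 and 7.75 and 14.3 in DOX day 12 (log2 2.17 from UT day 10, SE 0.40, adjusted p = 0.0066, edgeR). MT2A stood at 23.2 and 22.5, 20.0 and 30.1, and 56.6 and 99.0 CPM in the same order (log2 1.77, SE 0.35, adjusted p = 0.012). The DOX day 12 libraries differed from each other more than in most genes named, replicate 2 being the higher in both, and lay above the other 4. Without that replicate the values were 1.67 and 1.32 and neither was called, and both calls were also lost without either UT day 10 library (MT1X 2.09 and 2.27, MT2A 1.80 and 1.76). Metallothionein genes are near-identical neighbours on chromosome 16, so reads may be split between them. Their promoters are shown because they share repeats of the metal response element core TGCNCNC (N is any base). Sequences are from RefSeq on GRCh38.p14, 5′ to 3′ on the plus strand, with matches on either strand in capitals: 4 in MT1X (chr16:56682220-56682469) and 7 in MT2A (chr16:56608334-56608583). Of all 27305 promoters, 48.4% hold at least 1 match, 1.7% hold 4 or more and 0.0952% hold 7 or more.
MT1X: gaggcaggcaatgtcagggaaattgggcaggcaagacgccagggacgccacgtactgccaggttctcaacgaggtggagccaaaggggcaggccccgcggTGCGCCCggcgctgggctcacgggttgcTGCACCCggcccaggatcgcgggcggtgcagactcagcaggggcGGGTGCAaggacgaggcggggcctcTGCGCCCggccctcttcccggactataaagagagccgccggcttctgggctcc
MT2A: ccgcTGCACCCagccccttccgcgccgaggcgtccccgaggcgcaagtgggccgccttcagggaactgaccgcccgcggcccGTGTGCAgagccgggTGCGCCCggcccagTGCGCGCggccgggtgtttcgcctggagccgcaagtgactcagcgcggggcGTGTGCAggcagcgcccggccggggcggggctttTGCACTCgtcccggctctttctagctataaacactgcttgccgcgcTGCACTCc

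Of 34 stem and progenitor genes, 1 was called higher and 0 lower (median -0.06). With only the 4 libraries compared, 32 were tested, 7 called higher and 7 lower. The gene called in the fit of all groups was MLLT3, a reader of acylated histones that supports blood stem cell maintenance. It stood at 22.0 and 24.4 CPM in UT day 10, 19.0 and 20.8 in UT day 12 and 37.0 and 39.9 in DOX day 12 (log2 0.73, SE 0.16, adjusted p = 0.029, edgeR). Its difference from UT day 12 was 0.95 (SE 0.17, adjusted p = 0.0037). The first call was lost without any 1 library (0.66 to 0.81) and with library sizes alone (0.65, adjusted p = 0.12), the second without UT day 12 replicate 1 or DOX day 12 replicate 2 (0.89 to 1.02 over the 4 fits). HDAC9, a histone deacetylase and the only gene of 30 chromatin regulators called in the fit of all groups, rose from 5.63 and 5.44 CPM to 16.6 and 15.4 (log2 1.53, SE 0.26), with 20.0 and 21.7 in UT day 12, and was not called without either UT day 10 library (1.56 and 1.52). Fitted on the 4 libraries alone, 4 of the 30 chromatin regulators were called higher and 3 lower.

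Of the 13 mitochondrially encoded mRNAs, 1 was called higher and 0 lower, and all 13 were above 0 under each of the 3 scalings (median 0.57, against 0.14 in UT day 12). Fitted on the 4 libraries alone, 11 of the 13 were called higher. Their summed level was 51770 and 47414 CPM in UT day 10, 54730 and 58597 in UT day 12 and 59301 and 73038 in DOX day 12. The mitochondrial share of counts moved with these values, as given above, and its part in them was not tested. The gene called was MT-ND6, a subunit of respiratory complex I, at 116 and 95.5 CPM in UT day 10, 136 and 120 in UT day 12 and 239 and 242 in DOX day 12 (log2 1.18, SE 0.21, adjusted p = 0.0045, edgeR; 1.06 and not called without UT day 10 replicate 2). It lies on the opposite strand to its neighbours, and without a stated strand setting reads of overlapping transcripts cannot be told apart. MT-CO1, the most abundant, was not called (log2 0.15, adjusted p = 1.0). Nuclear genes of oxidative phosphorylation gave 0 calls of 33 (median -0.09, against -0.31 in UT day 12).

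Other genes lay below both untreated groups. CD82, a tetraspanin that limits cell movement, stood at 40.7 and 37.8 CPM in UT day 10, 51.2 and 49.4 in UT day 12 and 25.4 and 24.4 in DOX day 12. Its log2 fold change was -0.66 from UT day 10 (SE 0.12, adjusted p = 0.0073, edgeR) and -1.01 from UT day 12 (SE 0.12, adjusted p = 0.00032). TMIGD3, of the immunoglobulin superfamily, stood at 10.4 and 11 CPM, 16.1 and 17.9 CPM, and 6.64 and 7.23 CPM in the same order (log2 -0.62 from UT day 10, SE 0.14, adjusted p = 0.025, and -1.29 from UT day 12). In both, UT day 12 was the highest group and DOX day 12 the lowest, and the difference from UT day 12 held. The sodium channel subunit SCN4B went from 14.8 and 13.1 CPM to 5.53 and 5.84 (log2 -1.29, SE 0.22), with 10.0 and 11.4 in UT day 12. The adhesion protein MPZL2 fell by 0.72, the lymphocyte adaptor SASH3 by 0.77 and the membrane protein PMP22 by 0.74, while UT day 12 differed from UT day 10 by 0.03, -0.01 and -0.07 on the log2 scale. The calls from UT day 10 of CD82, TMIGD3, MPZL2 and SASH3 were lost without any 1 library (-0.70 to -0.60, -0.68 to -0.56, -0.84 to -0.57 and -0.86 to -0.67). SASH3 was also not called with library sizes alone (-0.85, adjusted p = 0.060), nor TMIGD3 with no filter (-0.63, adjusted p = 0.079). That of SCN4B was lost without UT day 10 replicate 1 (-1.20), DOX day 12 replicate 1 (-1.25) or DOX day 12 replicate 2 (-1.32), and that of PMP22 without UT day 10 replicate 1 (-0.73), UT day 10 replicate 2 (-0.74) or DOX day 12 replicate 1 (-0.64).

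**Figure D5:**
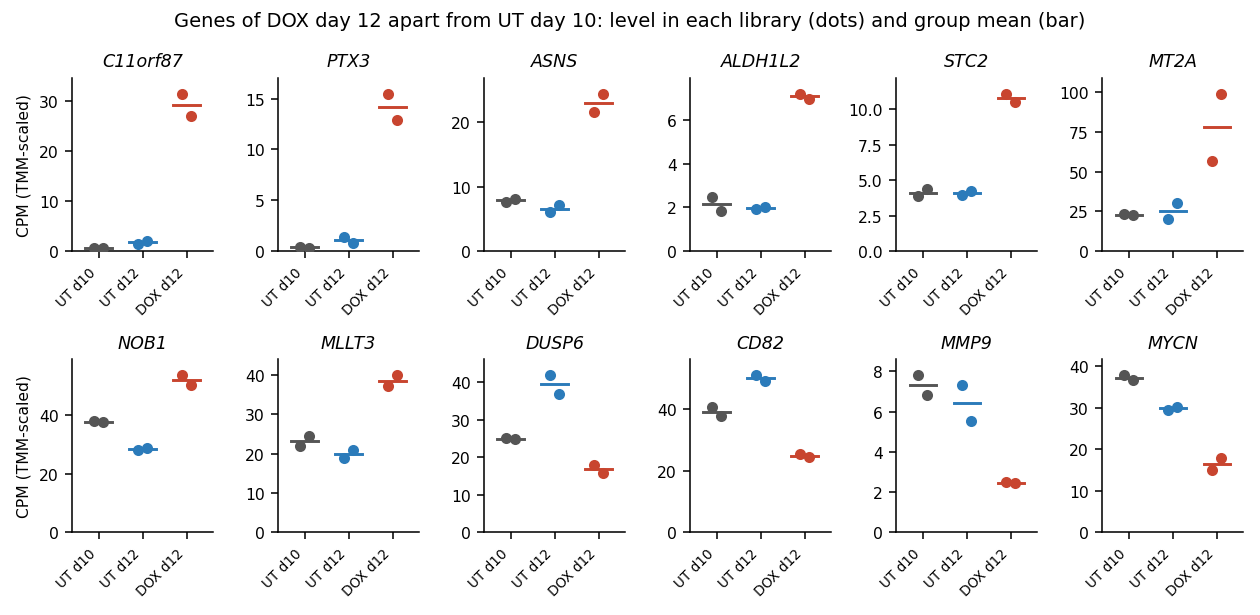
Level in CPM (TMM-scaled, linear axis from 0) of 12 genes in each library (dots) with the mean of the 2 libraries of a group (bar), for UT day 10, UT day 12 and DOX day 12. In the panels from C11orf87 to MLLT3 the DOX day 12 libraries are the highest, for example 21.6 and 24.4 CPM of ASNS against at most 8.09 elsewhere, and in those from DUSP6 to MYCN they are the lowest.

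Other lists held few calls in the fit of all groups. Of 21 lymphoid genes, IL7R was called higher and TCF7, a transcription factor of T cell and innate lymphoid precursors, lower (list median -0.38). TCF7 stood at 2.4 and 2.1 CPM in UT day 10, 1.41 and 1.56 in UT day 12 and 0.823 and 0.978 in DOX day 12 (log2 -1.32, SE 0.30, adjusted p = 0.031, edgeR), and its call was lost without any 1 library (-1.44 to -1.20) and with library sizes alone (-1.40, adjusted p = 0.070). Of 44 myeloid transcription factors, 3 were called higher and 0 lower (median 0.11), against 16 and 0 in UT day 12 (median 0.54). Of 32 lysosome genes 1 was called, higher (median 0.01). Cholesterol and fatty acid synthesis (31 tested, median 0.14), CDK inhibitors and p53 targets (25 tested, median 0.02) and the HOXA and HOXB genes (11 tested, median -0.49) gave 0 calls. With only the 4 libraries compared, 2 of 18 lymphoid genes were called higher and 4 lower. For myeloid transcription factors these counts were 12 and 5 of 44, and for lysosome genes 7 and 0 of 32. They were 8 and 0 of 31 for cholesterol and fatty acid synthesis and 4 and 2 of 25 for CDK inhibitors and p53 targets. For the HOXA and HOXB genes they were 0 and 4 of 10.

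UTP14C, a retrogene copy of a ribosome biogenesis gene, had 0 counts in both UT day 10 libraries, 624 and 411 in UT day 12 and 659 and 409 in DOX day 12. Against a floor of 3 counts per library it was at least 147-fold higher in DOX day 12 than in UT day 10. It is reported as uncertain, since its near-identical parent gene can take or give reads. The call was lost without either UT day 10 library, and by limma-voom (adjusted p = 0.14).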

How the data were processed

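PolyA-selected RNA of 22 libraries was sequenced, in 11 groups of 2. The submitters' processing notes name Trim Galore 0.6.5, STAR, Salmon and hg38; in the sources used here, annotation release, strand setting and filters are not given. The authors deposited estimated counts (expected counts, not normalized) for each gene; 88.3% of the values were whole, and all were rounded before fitting. Of 60240 genes, filterByExpr of edgeR 4.0.16 (minimum count 10) kept 20115. Libraries were scaled by TMM, and 1 quasi-likelihood fit with a coefficient per group (11 residual degrees of freedom, biological coefficient of variation 0.184) gave all 3 comparisons. A gene is called where its p, adjusted over all tested genes after Benjamini and Hochberg, is under 0.05. Positions are from GENCODE 29 on GRCh38, which matched 58020 gene identifiers. Totals of 33346915 to 53508590 counts in the 6 libraries described make counting error small for all but the lowest genes. The floor of 3 counts covers counting error only. SE is the absolute log2 fold change divided by the square root of the quasi-likelihood F value. It thus includes the spread between libraries as estimated over the 11 groups.

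The comparison, the 35 hand-written gene lists and the rule for named genes were chosen with earlier results of these data known. The rule named MYC; the 10 largest called rises and falls among genes of at least 5 CPM in the higher group; at that level, up to 6 a direction called the same way against both untreated groups, and up to 6 called in both day 12 groups that differed by under 0.25 (log2) from each other; up to 4 a direction called in opposite directions; and, per list, its most abundant member with at most 4 called ones. Clone, antisense, pseudogene, readthrough and Y-linked names were left out, and the text does not describe every gene the rule gave. Lists are described by counts and medians, with no test.

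The alternatives tried were no filter, scaling by library sizes alone or by DESeq2 size factors, at least 1 CPM in 2 libraries, limma-voom (limma 3.58.1), DESeq2 1.42.0, only the 3 groups of days 10 and 12, only the 4 libraries compared, replicate number as a block, mitochondrially encoded genes removed, each of 6 libraries left out, and a 2-fold threshold. With a library left out, its lone partner was assumed to vary like the other groups. The fit was tested on simulated data. Shares of promoters with CACGTG by class of genes were not compared, because only 66% of genes called higher and 79.1% of those called lower had a promoter in the RefSeq table, under the 80% needed. Tables and plots were made in Python 3.11.15 with matplotlib 3.10.9, pandas 2.3.3 and numpy 2.4.6, and the fits in R 4.3.3.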

Additional observations from a re-analysis of the deposited data

Results flagged for a closer look

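Only the 92 named genes followed through the settings were searched here, not all genes tested, and 11 met 3 conditions. The change from UT day 10 with doxycycline was called, the change without it had the opposite sign, and the difference between the changes was itself called by edgeR. NOB1, DUSP6 and TMIGD3 were named for opposite changes, and ALDH1L2, MT1X, CD82 and MPZL2 for standing apart from both untreated groups. The list is therefore a description. This log2 difference, DOX day 12 against UT day 12, was 1.81 for ASNS, 1.84 for ALDH1L2, 1.05 for PSAT1, 1.4 for STC2, 2.26 for MT1X, 0.95 for MLLT3 and 0.87 for NOB1. It was -1.22 for DUSP6, -1.29 for TMIGD3, -1.01 for CD82 and -0.75 for MPZL2. The differences of ASNS, NOB1, DUSP6, TMIGD3 and CD82 stayed called when each of the 4 libraries was left out in turn, and the other 6 did not. The difference was lost without UT day 12 replicate 1 for ALDH1L2 (1.80 to 1.88 over the 4 fits), without that library or DOX day 12 replicate 1 for PSAT1 (0.91 to 1.18), without it or DOX day 12 replicate 2 for MT1X (1.76 to 2.97) and MLLT3 (0.89 to 1.02), and without any 1 of the 4 for STC2 (1.36 to 1.46) and MPZL2 (-0.81 to -0.68). Opposite signs were a condition for entering the 11 and are no result. The untreated change was small in several (0.03 for MPZL2 and -0.02 for STC2) and was called only for NOB1, DUSP6 and TMIGD3.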

How the results depend on the processing

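DOX day 12 against UT day 10 gave 293 calls, and 585 with no filter, 618 by limma-voom, 679 by DESeq2, 2617 with only the 3 groups of days 10 and 12, 2673 with only the 4 libraries, 182 at 2-fold or more, and 81 to 247 with 1 library left out. UT day 12 against UT day 10 gave 1635, and 2869 by limma-voom, 2492 by DESeq2, 6144 with 3 groups, 775 at 2-fold or more, and 577 to 1366 with 1 library left out. DOX day 12 against UT day 12 gave 625, and 940 with no filter, 1530 by limma-voom, 1409 by DESeq2, 4489 with 3 groups, 255 at 2-fold or more, and 56 to 489 with 1 library left out. Of the list members, 84 were called, and 127 with no filter, 147 by DESeq2, 356 with 3 groups, 360 with the 4 libraries, and 31 to 73 with 1 library left out. With the replicate number as a block the counts were 417, 2016, 950 and 108 in the same order. Deviations of same-numbered libraries were weakly correlated (0.05, 0.03 and 0.10 between the 3 groups, and -0.02 to 0.20 over all 11 groups). With 1 difference per group, these values cannot decide whether same-numbered libraries share a culture or a batch. The difference in mitochondrial share, 2.38 percentage points, ran from 1.47 to 3.27 with 1 library left out. Of 81 called genes followed through all settings, all 81 kept their direction and 27 kept their call under each. Medians of 31 of 35 lists moved by more than the replicate spread under some alternative. The CACATG search was not run. Genes of few counts and changes under 2-fold are limited by depth and by 2 libraries a group.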
